A study of Drosophila melanogaster with 54 samples.

Results

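The genes described here are the cyclins and the direct regulators of the cyclin-dependent kinase Cdk1 that a Drosophila egg inherits as maternal mRNA. They were chosen by symbol, not by their values: the cyclin genes CycA, CycB, CycB3, CycE and CycD, the Cdk1 gene itself (listed as cdc2), the Cdc25 phosphatase genes stg and twe, the Wee1 kinase gene wee and the Cdk1-binding subunit gene Cks30A. All 10 were listed among the 14250 genes of the unfractionated RNA tables and among the 5088 genes listed in all 6 polysome gradients. Each also had 1 transcript among the 5842 of the ribosome footprint table, so isoforms of a gene were not resolved there.

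Cdk1 is the kinase that drives entry into mitosis and meiosis. It is active only when bound to a cyclin, is held inactive by the phosphorylation that Wee1 places on it, and is released by the Cdc25 phosphatases that take that phosphate off. The mature Drosophila oocyte waits in metaphase of the first meiotic division without transcription, completes meiosis when it is activated, and then runs rapid nuclear cycles from stored mRNAs. The levels of mitotic cyclins at this step are known to be set through translation of those mRNAs, for which the kinase PAN GU, whose catalytic subunit is encoded by png, is required.

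The study compared stage 14 oocytes of OregonR females, hand selected from collagenase-treated ovaries of 4-day-old flies, with activated eggs. Eggs were laid over 2 h by OregonR virgins kept with spermless twine (HB5) males and were dechorionated, so they were activated but not fertilised, and the twe gene described here is also the gene mutated in those males. Females that gave oocytes were kept at 25 °C and eggs, png mutant ones included, were collected at 23 °C, so stage and temperature cannot be told apart in any comparison of eggs with oocytes. Sucrose gradients split the lysates into 6 fractions, from free ribonucleoprotein particles (RNPs) through 40S and 60S with 80S to low (2 to 4 ribosomes), medium (5 to 9) and heavy (above 10) polysomes. There were 2 replicate gradients per stage and 1 per stage from lysate given 2 mM of puromycin, which makes elongating ribosomes end early and let go of the mRNA. Ribosome footprints and RNA were sequenced from oocytes, eggs and eggs of png1058/png1058 mothers, each in 1 pair of libraries without and 1 pair with cycloheximide, which stalls ribosomes. The png mutant eggs differ from the others in strain as well, so the allele and its background cannot be told apart. Nothing in the labels says that replicates were separate collections, so a p-value covers no more than the spread among these libraries, which may be technical.

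Input libraries held about 2660000 to 17700000 reads, as estimated from the smallest steps between low RPKM values and gene length, oocyte replicate 2 being the shallowest. The 7 markers of the germline were present in all inputs. Follicle cells, which surround the oocyte, were still with the oocytes: their 10 marker genes summed to 28369 and 23232 RPKM in the oocyte inputs against 0.25 and 0.543 RPKM in the eggs, where Cp16, Cp36, Cp38, Vm26Ab and Vm34Ca were listed at 0. In such bulk samples fewer cells of a type and less RNA per cell cannot be told apart. Of these markers 2 were in the footprint table, and their sum made up 3.44% and 10.2% of the footprint RPKM of oocytes without and with cycloheximide, against at most 0.00582% in eggs. The input library labelled as puromycin-treated eggs stood apart: its follicle markers summed to 28703 RPKM, as in oocytes, and its germline markers to 376 RPKM against 792 to 1105 RPKM in the other inputs. It entered no test. The gradient of puromycin-treated eggs did not share this, with 1 of the 10 follicle markers listed and a sum of 0.000862% of all values. The png mRNA stood at 101 and 102 RPKM in eggs and at 92.1 and 96.9 RPKM in png mutant eggs, so its level does not check the allele.

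How much mRNA of each gene was present was read first. CycB, a mitotic cyclin gene, had the highest level of the 10, at 1390 and 1375 RPKM in the oocyte inputs and 1035 and 1526 RPKM in the egg inputs. CycA, the cyclin gene whose product is needed for entry into mitosis, had input levels of 688 and 552 RPKM in oocytes and of 388 and 715 RPKM in the egg inputs. For both genes the egg range included the oocyte values or overlapped them. The cdc2 mRNA stood at 184 and 121 RPKM before and 321 and 221 RPKM after activation, both egg values above both oocyte values. Cks30A, which encodes the small subunit that binds Cdk1 and is needed in female meiosis, stood at 67.2 and 61.9 RPKM before and 15.2 and 35.9 RPKM after activation, both egg values below. The other 6 genes had oocyte means between 35.9 RPKM for wee and 179 RPKM for CycB3. Among them CycE (155.8 and 156.0 RPKM before, 94.3 and 148.7 RPKM after) and twe (63.0 and 61.0 RPKM before, 30.1 and 60.0 RPKM after) also had both egg values below. How many of all genes had both egg values outside the oocyte range was not counted. These orders are therefore no result about the 10 genes.

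None of the 10 genes passed the test of input levels between stages (limma on log2(RPKM + 1), adjusted p under 0.05), and 2 of them, cdc2 and Cks30A, had an unadjusted p under 0.05. Cks30A differed by -1.42 (SE 0.36, adjusted p = 0.0683 by limma) and cdc2 by 0.83 (SE 0.30, adjusted p = 0.246 by limma). Over all 6622 genes tested 3.47% passed, 0.423% higher and 3.05% lower in eggs. Egg replicate 1 was below egg replicate 2 for 9 of the 10 genes, all but cdc2. Without egg replicate 2, 7 of the 10 passed, CycB3, CycE, stg, twe, wee and Cks30A lower and cdc2 higher in eggs, and 1726 genes in all in place of 230. Cks30A also passed with libraries centred on their median (-1.32, limma adjusted p = 0.0291). The RNA libraries of the footprint series gave Cks30A 119 and 98.9 RPKM before activation and 115.2 and 106 RPKM in eggs, which overlap. They gave cdc2 207 and 204 RPKM before activation and 232 in each egg library. In that series none of the 10 passed between eggs and oocytes by limma, 1 (CycB3) had an unadjusted p under 0.05, and 0.394% of 5840 transcripts passed, 0.0685% higher and 0.325% lower. CycB3 mRNA stood there at 145 and 146 RPKM in the oocyte libraries and 86.4 and 81.3 RPKM in those of eggs. RNA was poly(A)-selected, so a change of tail length and a change of amount cannot be told apart.

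**Figure D1:**
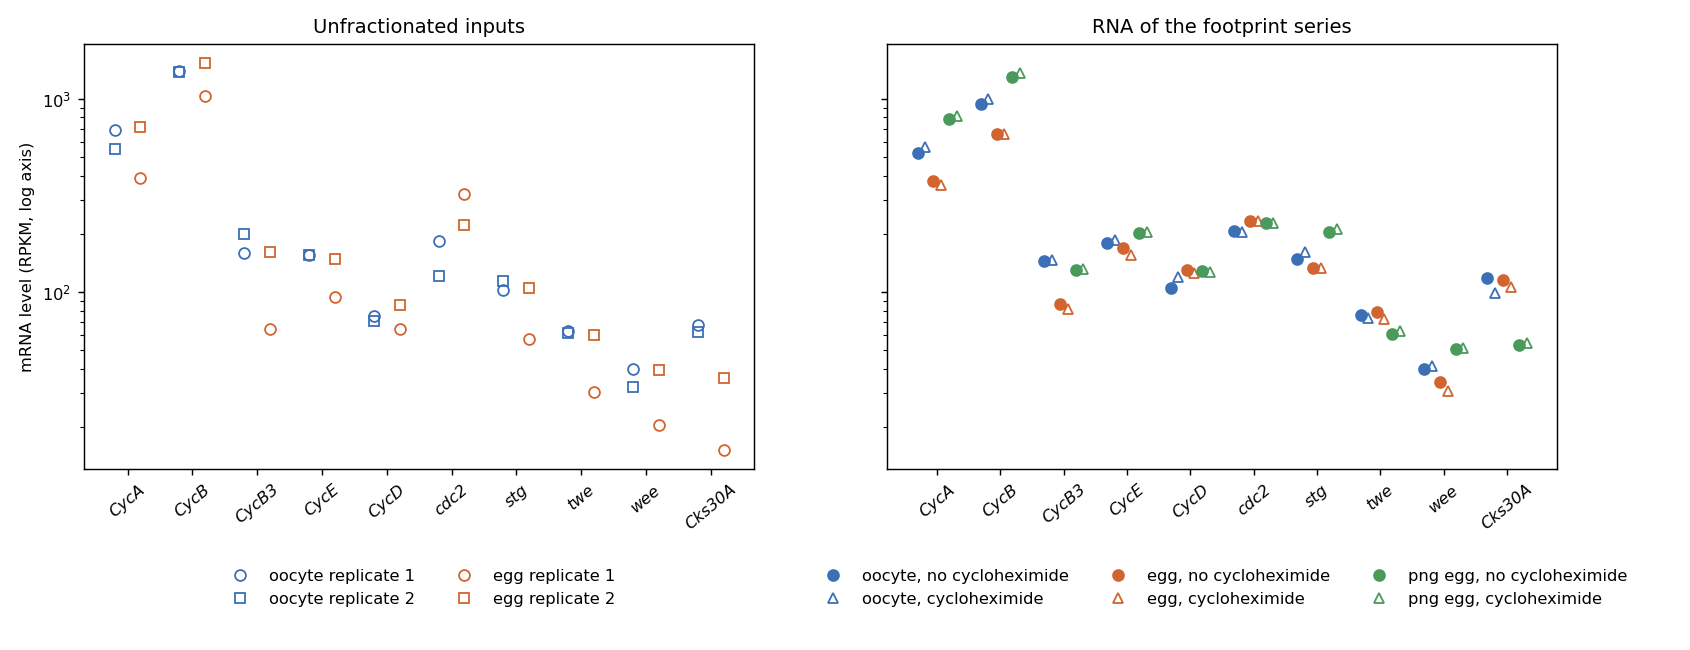
mRNA levels of the 10 genes in RPKM on a log axis, in the 2 oocyte and 2 egg inputs (left) and in the RNA libraries of the footprint series (right), where each point is 1 library. CycB and CycA stand highest in both panels, and Cks30A is lower in both egg inputs than in both oocyte inputs but not in the footprint series. CycE and twe are also lower in both egg inputs, and cdc2 is higher.

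Where each mRNA sat in the gradient was then compared between stages. The polysomal share is the part of a gene's mRNA, summed over the 6 fractions, that was in medium and heavy polysomes. It rests on the authors' normalization between fractions, and the labels disagree on which gradients received the yeast mRNA added for that purpose. CycA mRNA had a polysomal share of 31.4% and 33.6% in the oocyte gradients and 68.4% and 60.7% in the egg gradients. The difference lay in heavy polysomes, which held 15.0% and 15.5% of it in oocytes and 52.7% and 45.8% in eggs. The 60S with 80S fraction held 25.7% and 35.4% and then 8.45% and 10.5%, a share that was lower in both eggs for 50.7% of all genes. The polysomal shares of the groups did not overlap, being higher in both eggs as for 25.2% of all genes. Their log2 odds rose by 1.93 (SE 0.22, adjusted p = 0.000461 by limma). CycB followed the same order at 33.8% and 33.6% in oocytes and 58.9% and 45.5% in eggs (log2 odds 1.11, SE 0.27, adjusted p = 0.0111 by limma). Its heavy share was 16.3% in both oocyte gradients and 45.9% and 28.8% in eggs, so the egg replicates lay further apart than for CycA. With low polysomes counted as polysomal, the CycB difference was 0.36 and did not pass (adjusted p = 0.250 by limma).

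CycB3, the B-type cyclin gene required in female meiosis, was already mostly polysomal in oocytes. Its share was 59.5% and 55.0% there and 69.8% and 58.8% in eggs, ranges that overlapped. The difference of 0.43 (SE 0.30) did not pass (adjusted p = 0.236 by limma), although it did with the fractions rescaled to equal totals (0.71, adjusted p = 0.0196) or with gradients centred on their median (0.94, adjusted p = 0.0315). Its heavy fraction alone held 34.8% and 31.4% in oocytes and 52.5% and 41.6% in eggs, but with heavy polysomes alone the difference did not pass. It passed under 2 of 14 settings, the rescalings.

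CycE and CycD encode cyclins that pair with other Cdks, Cdk2 at the start of S phase and Cdk4 in growth. CycE mRNA fell from 39.4% and 38.2% in oocytes to 21.7% and 19.4% in eggs (log2 odds -1.29, SE 0.16, adjusted p = 0.000618 by limma). In eggs its mRNA was found in the lighter part of the gradient, with 25.4% and 23.6% at 40S against 11.1% and 3.63% in oocytes. The 40S share was higher in both eggs than in both oocytes for 72.4% of all genes, with medians of 15.6% in eggs and 8.05% in oocytes. CycD mRNA stood at 24.5% and 26.5% in oocytes and 32.6% and 32.9% in eggs, a rise of 0.50 (SE 0.16, adjusted p = 0.0273 by limma). That call for CycD was lost without oocyte replicate 1 (0.43, adjusted p = 0.172) and without oocyte replicate 2 (0.58, adjusted p = 0.0812). It was also lost with heavy polysomes alone (0.29) and with low polysomes counted (0.18). Free RNPs held 8.44% and 3.73% of the CycD mRNA in oocytes and 24.2% and 14.7% in eggs, and the 60S with 80S fraction 28.1% and 42.6% and then 14.6% and 16.4%. Among all genes, RNP shares were higher in both eggs for 92% and 60S with 80S shares lower for 50.7%.

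The mRNA of cdc2 had the highest polysomal share of the 10 in both egg gradients. It stood at 55.7% and 51.7% in oocytes and 79.6% and 76.5% in eggs (log2 odds 1.61, SE 0.23, adjusted p = 0.00106 by limma). The egg replicates split this share differently between medium and heavy polysomes, 37.4% and 42.3% in replicate 1 against 16.99% and 59.5% in replicate 2. With heavy polysomes alone the cdc2 difference was 0.82 and did not pass (adjusted p = 0.113 by limma).

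The Cdc25 genes did not pass. The mRNA of stg, the phosphatase gene of the embryonic mitoses, stood at 35.0% and 35.2% in oocytes and 32.4% and 27.7% in eggs (log2 odds -0.33, SE 0.18, adjusted p = 0.139 by limma), a direction that turned under both rescalings (0.17 and 0.18). The mRNA of twe, the Cdc25 gene of meiosis, stood at 46.0% and 45.7% in oocytes and 34.2% and 42.3% in eggs (-0.45, SE 0.21, adjusted p = 0.102 by limma), and 0.06 with gradients centred. For twe the egg replicates differed in the heavy fraction, 8.25% and 19.3%, against 26.1% and 25.3% in oocytes. Counted with low polysomes, both genes passed as lower (stg -0.79, adjusted p = 0.00534; twe -0.72, adjusted p = 0.0236), and twe also passed with heavy polysomes alone (-1.21, adjusted p = 0.0415) and without egg replicate 2 (-0.70, adjusted p = 0.0155).

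The mRNA of wee, the inhibitory kinase gene of the early embryo, stood at 32.8% and 43.5% in oocytes and 61.2% and 56.7% in eggs. It rose by 1.21 (SE 0.26, adjusted p = 0.00658 by limma), with heavy polysomes going from 16.3% and 26.5% to 41.3% and 45.8%. With low polysomes counted the wee difference was 0.30 and did not pass (adjusted p = 0.373 by limma).

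Cks30A moved the other way. Its polysomal share was 62.6% and 54.6% in oocytes, the highest oocyte mean of the 10, and 9.84% and 19.7% in eggs, the lowest egg mean. The log2 odds fell by 3.04 (SE 0.38, adjusted p = 0.000618 by limma), which placed it at position 58 from the lowest of 5088 genes. In eggs its mRNA was spread over RNPs (26.7% and 7.0%), 40S (22.2% and 23.6%) and 60S with 80S (26.8% and 29.1%), the RNP values of the replicates being far apart.

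**Figure D2:**
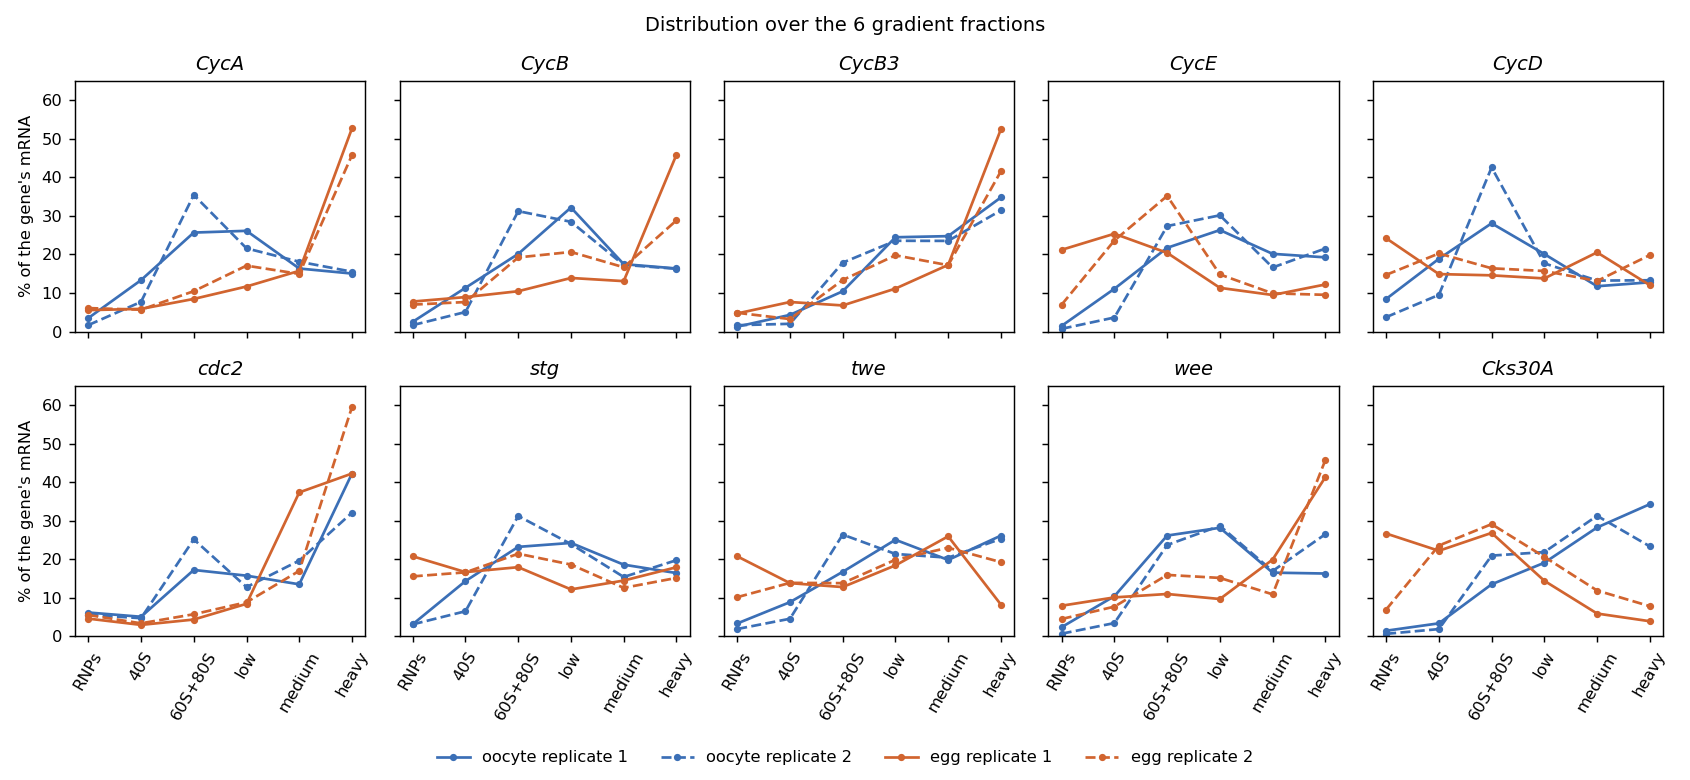
Share of each gene's mRNA, in percent, in the 6 gradient fractions from RNPs to heavy polysomes, for the 2 oocyte and the 2 egg gradients. CycA, CycB, CycB3 and wee have more of their mRNA in the heavy fraction in both egg gradients than in both oocyte gradients. So does cdc2, narrowly (42.25% in egg replicate 1 against 42.24% in oocyte replicate 1), and CycE, twe and Cks30A have less. The share of all genes with heavy fractions that did not overlap was not counted.

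Of the 10 genes 5 were higher and 2 lower in polysomal share in eggs, and 3 did not pass. Over the 5088 genes 69.1% passed, 18.2% higher and 51% lower. The median log2 odds difference was 0.47 over the 10 and -0.60 over all genes. With the fractions rescaled to equal totals over those genes the median of all became -0.19, and 1435 genes stood higher and 1922 lower in place of 924 and 2593. Centring the gradients on their median gave -0.09, with 1594 and 1883. The tally of members turned with the fractions counted as polysomal: 3 were higher and 3 lower with heavy polysomes alone, where 447 of all genes were higher and 2481 lower, and 2 were higher and 4 lower with low polysomes counted, where 652 were higher and 3030 lower. Under either scaling 6 of the 10 were higher and 2 lower, and 8 of the 10 lay above the median of all genes, all but CycE and Cks30A. The calls for CycA, CycE and Cks30A held under all alternatives tried. RNP shares were higher in both eggs than in both oocytes for 9 of the 10, as for 92% of all genes. The exception was cdc2, whose RNP share was lower in both eggs, as for 1.91% of all genes, at 6.19% and 5.57% in oocytes and 4.6% and 5.54% in eggs.

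Genes with the most similar profiles were found by the distance between 12 mean fraction shares, 6 in oocytes and 6 in eggs, among the 5088 genes. For CycA they were CG8368, CG3679 and CG1962, at distances of 6.61 to 7.32 percentage points against a median of 48.2 over all genes. For CycB they were wech, Trn and fu, at 6.19 to 7.12 against a median of 37.5. For CycB3 they were Ppt1, RpII140 and egg (the eggless methyltransferase gene), at 7.32 to 9.41 against a median of 50.4.

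Whether polysomal mRNA was held by elongating ribosomes was addressed with puromycin, in 1 gradient per stage. The puromycin lysates and gradients also had another salt and magnesium content and no cycloheximide, and the effects of drug and buffer cannot be told apart. In the oocyte gradient cdc2 mRNA had a polysomal share of 15.2% after puromycin, against 55.7% and 51.7% without. The log2 odds fell by 2.69 (SE 0.28, adjusted p = 0.00129 by limma, which assumes that the lone gradient varies as the replicates do). CycB3 stood at 29.1% (-1.70, adjusted p = 0.0104), Cks30A at 31.4% (-1.62, adjusted p = 0.0288) and twe at 30.3% (-0.96, adjusted p = 0.0240), all by limma. The other 6 genes did not pass: CycA stood at 27.8%, CycB at 25.4%, CycE at 31.0%, CycD at 26.2%, stg at 34.2% and wee at 32.1%, with log2 odds from -0.58 for CycB to 0.05 for CycD. The 4 genes that fell were also the 4 with the highest polysomal shares in untreated oocytes. Since those shares enter the comparison, this order is no separate result. Over all genes 50% passed, 49.5% as lower and 0.55% as higher.

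The puromycin calls in oocytes depended on the scaling of fractions. The cdc2 call held under all alternatives tried. With the fractions rescaled to equal totals, the median over all genes moved from -0.70 to 0.45, and 1817 genes stood higher and 723 lower in place of 28 and 2518. CycB3 (-0.43) and Cks30A (-0.60) then no longer passed and twe turned to 0.33, while CycA (0.99), CycB (0.85), CycE (0.86), CycD (1.37), stg (1.33) and wee (0.98) were called higher. With gradients centred on their median the split was 716 higher and 1028 lower, cdc2 was lower and CycD higher (0.75). Without oocyte replicate 1 the calls for twe and Cks30A were also lost, and over all genes 1617 in place of 2546 passed. The twe call was lost without oocyte replicate 2 as well, and with heavy polysomes alone CycB3, twe and Cks30A did not pass. With low polysomes counted twe lost its call as well, and CycD (0.78, adjusted p = 0.0248 by limma) and stg (0.82, adjusted p = 0.0291 by limma) were called higher.

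In eggs puromycin left every one of the 10 mRNAs at a low polysomal share, between 7.72% for cdc2 and 12.01% for CycB3. Against the untreated eggs cdc2 fell by 5.404 (SE 0.28, adjusted p = 3.74e-05 by limma), CycA by 3.98 (SE 0.27), CycB3 by 3.72 (SE 0.37), wee by 3.64 (SE 0.32) and CycB by 3.12 (SE 0.34). CycA mRNA went from 68.4% and 60.7% to 10.4%, with 46.1% of it in the 60S with 80S fraction. These 5 calls held under all alternatives tried. CycD (-2.49), twe (-2.25), stg (-1.83) and CycE (-1.26) also fell. Under the 2 rescalings, however, CycE was called higher (0.75 and 0.64) and stg turned to 0.23 and 0.07 without passing. CycD did not pass with fractions rescaled to equal totals (-0.62), and twe passed under neither rescaling. Cks30A stood at 8.97% after puromycin against 9.84% and 19.7% without, and did not pass (-0.79, SE 0.47, adjusted p = 0.163 by limma). It turned to 1.12 with fractions rescaled to equal totals, where it was called higher, and to 1.11 with gradients centred, where it did not pass. Over all genes 81.1% passed, 80.1% as lower and 1% as higher. Rescaling the fractions to equal totals gave 1597 genes higher and 1597 lower, and centring gave 1755 and 1539, in place of 51 and 4077.

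The puromycin effect was larger in eggs than in oocytes for 8 of the 10 genes, by the contrast of both effects in the same model, where 55.7% of all genes passed, 49.9% in this direction and 5.84% in the other. The difference was -3.66 for CycA (SE 0.39, adjusted p = 0.00101 by limma), -3.27 for wee (SE 0.46), -2.71 for cdc2 (SE 0.40) and -2.54 for CycD (SE 0.27), and these 4 held under all alternatives tried. CycB, CycB3, stg and twe lost the call under at least 1 alternative. CycE (-0.76, adjusted p = 0.0574) and Cks30A (0.84, adjusted p = 0.318) did not pass by limma. CycE was called lower with 5 added to each side of the odds (-0.78) and with heavy polysomes alone (-2.12). It turned to 0.43 with gradients centred and to 0.59 with low polysomes counted. Cks30A was called higher under both rescalings (1.72 and 2.03) and turned to -0.41 with heavy polysomes alone. Without egg replicate 2 the differences were -0.86 for CycE and 1.41 for Cks30A. The untreated gradients enter this contrast and, with the opposite sign, the comparison of eggs with oocytes. The contrast is therefore no separate result from the polysomal shares of untreated eggs and oocytes. Over all genes, rescaling fractions to equal totals gave 613 higher and 1445 lower and centring gave 1368 and 934, in place of 297 and 2538.

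**Figure D3:**
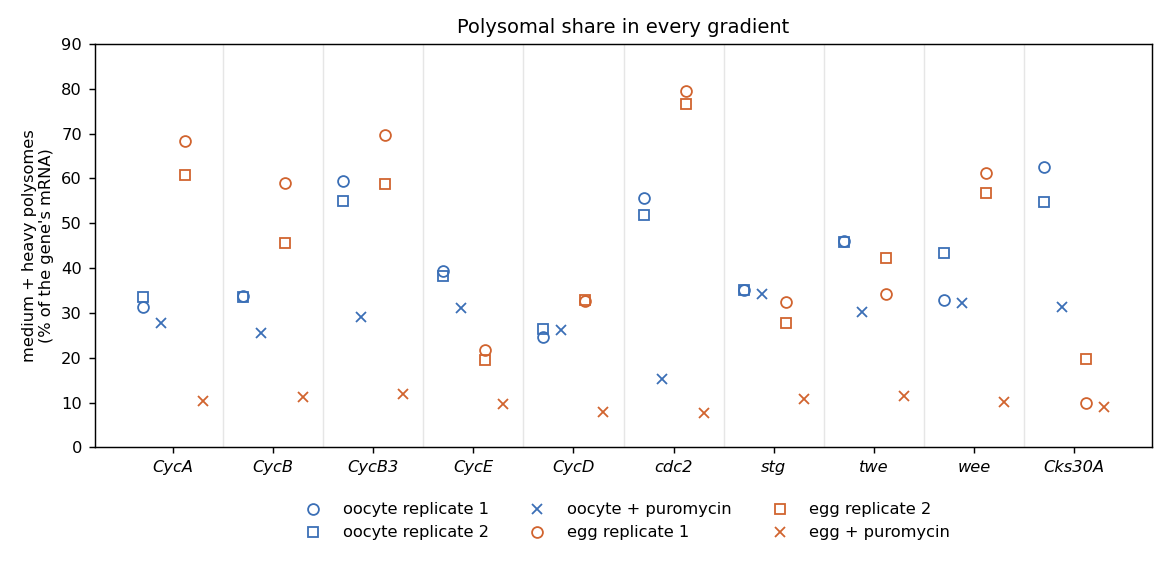
Polysomal share (medium and heavy polysomes, percent of the gene's mRNA) in all 6 gradients, with circles and squares for the replicate gradients and crosses for the 1 puromycin gradient of each stage. All 10 puromycin values in eggs lie between 7.72% and 12.01%, while those in oocytes range from 15.2% for cdc2 to 34.2% for stg.

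Ribosome footprints gave a separate reading. Translational efficiency is log2(footprint RPKM + 1) minus log2(RNA RPKM + 1), and each pair of values below is without and with cycloheximide. CycA had 140 and 53.0 RPKM of footprints before activation and 4016 and 3765 RPKM in eggs, on RNA of 521 and 566 RPKM and of 373 and 359 RPKM. Its translational efficiency was thus -1.89 and -3.39 in oocytes and 3.43 and 3.39 in eggs. The rise of 6.05 (SE 0.43, adjusted p = 3.84e-06 by limma) was the second highest of 5840 transcripts tested. CycB had 1612 and 321 RPKM of footprints in oocytes and 7668 and 7178 RPKM in eggs, the highest footprint values of the 10. Its efficiency of 0.77 and -1.63 in oocytes differed most of the 10 genes between the cycloheximide states, while that in eggs was 3.54 and 3.45 (rise 3.93, SE 0.68, adjusted p = 0.000686 by limma). CycB3 went from 1.27 and 0.01 in oocytes to 3.68 and 3.69 in eggs (rise 3.05, SE 0.39, adjusted p = 0.000108 by limma). The 3 mitotic cyclin mRNAs, which ranged from -3.39 to 1.27 in oocytes, stood between 3.39 and 3.69 in both egg pairs.

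CycD had the lowest efficiency of the 10 in oocytes, with footprints of 5.63 and 5.91 RPKM on RNA of 104 and 119 RPKM. In eggs it had 174 and 205 RPKM of footprints on 130 and 125 RPKM of RNA, a rise in efficiency of 4.62 (SE 0.20, adjusted p = 1.18e-06 by limma). CycE went from -1.63 and -2.49 to 1.43 and 1.46 (rise 3.51, SE 0.29, adjusted p = 8.19e-06 by limma). For CycE the footprints and the gradients thus pointed in opposite directions, since its polysomal share fell. This pair of measurements came from different lysates and different normalizations, and the difference between them was not tested.

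The mRNA of wee rose from 15.0 and 7.998 RPKM of footprints in oocytes to 166 and 163 RPKM in eggs, an efficiency of -1.34 and -2.24 and then 2.25 and 2.37 (rise 4.10, SE 0.30, adjusted p = 4.51e-06 by limma). The mRNA of stg rose from 22.7 and 11.6 RPKM to 168 and 160 RPKM, an efficiency of -2.65 and -3.69 and then 0.34 and 0.27 (rise 3.47, SE 0.35, adjusted p = 2.58e-05 by limma), with a polysomal share that did not pass. The opposed regulators of Cdk1 phosphorylation, kinase and phosphatase, both had more footprints in eggs.

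The genes twe and cdc2 changed least. The efficiency of twe was 0.22 and 0.13 before activation and 0.87 and 1.27 in eggs (rise 0.90, SE 0.21, adjusted p = 0.00367 by limma), and that of cdc2 was 1.38 and 0.86 before and 1.72 and 1.77 in eggs (rise 0.63, SE 0.21, adjusted p = 0.0248 by limma). With libraries centred on their median, cdc2 turned to -0.15 and twe stood at 0.12, and neither passed. Without the egg library pair with cycloheximide neither passed as well (cdc2 0.43, twe 0.67), and the cdc2 call was also lost without the egg pair lacking cycloheximide (0.82) and without the oocyte pair with cycloheximide (0.39).

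Cks30A was the only one of the 10 to fall. Its footprints came to 160 and 351 RPKM in the oocyte pairs and to 34.5 and 46.4 RPKM in eggs. Its efficiency went from 0.43 and 1.82 to -1.71 and -1.18 (difference -2.57, SE 0.36, adjusted p = 0.000179 by limma). In oocytes its footprints were higher with cycloheximide, as were those of CycD, narrowly (5.63 and 5.91 RPKM), while 8 of the 10 genes had lower ones. The share of all transcripts with lower ones was not counted.

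In all, 9 of the 10 rose in translational efficiency and 1 fell, where 70.7% of all transcripts passed, 46% higher and 24.7% lower. The median difference was 3.49 over the 10 and 0.50 over all transcripts. With libraries centred on their median these were 2.72 and -0.27, 7 of the 10 were higher and 1 lower, and over all transcripts 1883 were higher and 2565 lower, in place of 2686 and 1445. The calls for CycA, CycB, CycB3, CycE, CycD, stg, wee and Cks30A held under all alternatives tried. The share of oocyte footprints on follicle cell genes, given above, differed between the cycloheximide states in the same libraries. Its part in these differences was not tested.

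Whether these changes needed PAN GU was addressed with the eggs of png mutant mothers. CycA had 123 and 142 RPKM of footprints in png mutant eggs, on RNA of 781 and 812 RPKM, against 4016 and 3765 RPKM in eggs. Its efficiency of -2.65 and -2.50 lay within the range of the oocytes, -3.39 to -1.89, and differed from that of eggs by -5.99 (SE 0.43, adjusted p = 2.83e-06 by limma). CycB had 393 and 471 RPKM of footprints on 1298 and 1366 RPKM of RNA, an efficiency of -1.72 and -1.53 (difference from eggs -5.13, SE 0.68, adjusted p = 0.000122 by limma). CycB3 stood higher, at 1.77 and 1.89 (difference -1.85, SE 0.39, adjusted p = 0.00224 by limma), which is above both oocyte values. The CycB3 call was lost without the egg library pair with cycloheximide (-1.56, adjusted p = 0.0805).

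The other cyclins stood between the oocyte and egg values. CycD had an efficiency of -1.73 and -1.67 in png mutant eggs (difference from eggs -2.27, SE 0.20, adjusted p = 8.60e-06 by limma). CycE had -0.13 and -0.01 (difference -1.52, SE 0.29, adjusted p = 0.00123 by limma), a call lost without the egg pair with cycloheximide (-1.32, adjusted p = 0.0580).

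Among the Cdk1 regulators stg showed the lowest efficiency of the 10 in png mutant eggs, with footprints of 9.09 and 11.8 RPKM on 203 and 212 RPKM of RNA. Its efficiency of -4.34 and -4.06 was below that of both oocyte pairs and differed from eggs by -4.51 (SE 0.35, adjusted p = 4.69e-06 by limma). The wee mRNA stood at 0.13 and 0.15 (difference -2.17, SE 0.30, adjusted p = 0.000168 by limma), between oocytes and eggs. The cdc2 mRNA stood at 1.43 and 1.27 and did not pass (-0.39, SE 0.21, adjusted p = 0.126 by limma), turning to 0.15 with libraries centred. The twe mRNA was higher, at 1.91 and 1.90 (difference 0.84, SE 0.21, adjusted p = 0.00521 by limma), but that call was lost without the egg pair lacking cycloheximide (0.62) and without either png mutant pair (0.76 and 0.92).

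Cks30A again moved opposite to the mitotic cyclins. In png mutant eggs it had 720 and 644 RPKM of footprints on 53.2 and 54.1 RPKM of RNA, against 34.5 and 46.4 RPKM on 115.2 and 106 RPKM in eggs. Footprints per RNA were 13.5 and 11.9 in png mutant eggs, 0.300 and 0.437 in eggs and 1.35 and 3.55 in oocytes, so the mutant eggs stood above both other groups. The efficiency difference from eggs was 5.08 (SE 0.36, adjusted p = 2.46e-06 by limma), position 27 from the highest of 5840 transcripts.

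Of the 10 genes 7 were lower and 2 higher in png mutant eggs than in eggs, where 70.1% of all transcripts passed, 38% lower and 32.1% higher. The median difference was -2.01 over the 10 and -0.11 over all transcripts. With libraries centred the same counts of members were called, with medians of -1.47 and 0.43, and over all transcripts 2762 were higher and 1823 lower, in place of 1876 and 2218. The calls for CycA, CycB, CycD, stg, wee and Cks30A held under all alternatives tried. This comparison and that of eggs with oocytes share the egg libraries, so their opposite signs are not separate results.

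**Figure D4:**
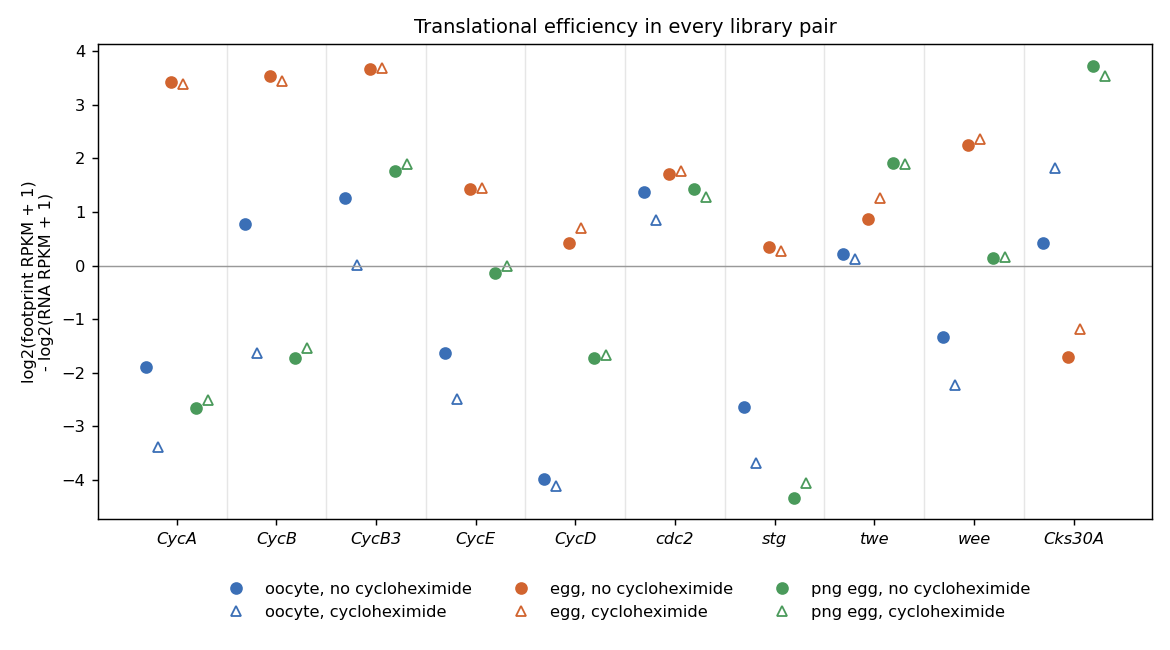
Translational efficiency, log2(footprint RPKM + 1) minus log2(RNA RPKM + 1), of the 10 genes in oocytes, eggs and png mutant eggs, with 1 filled point for the library pair without and 1 open triangle for the pair with cycloheximide. All genes but twe and Cks30A stand higher in eggs than in oocytes and png mutant eggs. Cks30A is lowest in eggs and highest in png mutant eggs.

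RNA levels differed less between genotypes. CycA RNA was 373 and 359 RPKM in eggs and 781 and 812 RPKM in png mutant eggs, and CycB RNA 656 and 654 RPKM and 1298 and 1366 RPKM. Neither passed (log2 difference 1.12, adjusted p = 0.0653 for CycA and 1.02, adjusted p = 0.248 for CycB, by limma). CycA passed with libraries centred (1.02, adjusted p = 0.0192 by limma), and CycB passed under 0 of 9 settings. Cks30A RNA was lower in png mutant eggs (-1.03, SE 0.25, adjusted p = 0.0488 by limma), the only one of the 10 to pass, where 6.15% of all transcripts did, 4.32% higher and 1.83% lower. That call lay at the threshold and was lost under all alternatives tried but the removal of the filter, with adjusted p up to 0.481. With any 1 egg or png mutant RNA library left out, the Cks30A difference ranged from -1.14 to -0.92. Fewer transcripts were then called than in the full fit.

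A list of 39 other genes of Cdks, cyclins and Cdk1 control gave a setting for these values. Of 37 listed in all gradients 6 were higher and 22 lower in polysomal share in eggs, with a median of -0.99 against -0.60 over all genes. The rises were led by 14-3-3zeta, an adaptor of phosphorylated proteins, from 46.9% and 37.5% to 76.7% and 69.4% (1.90), lok, the Chk2 kinase gene, from 26.4% and 25.5% to 57.4% and 50.7% (1.75), gwl, the Greatwall kinase gene (1.69), and fzy, the Cdc20 gene (1.14). The falls were led by cort, the gene of a female meiotic activator of the anaphase-promoting complex, from 50.9% and 42.0% to 10.1% and 10.7% (-2.87), E2f (-2.46), endos, the gene of the PP2A inhibitor endosulfine (-2.26), and CycT (-2.15). The fzy call was lost with low polysomes counted and without oocyte replicate 2, and that of 14-3-3zeta with heavy polysomes alone.

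In translational efficiency 21 of the 39 were higher and 5 lower in eggs than in oocytes, with a median of 0.66 against 0.50 over all transcripts. Over all transcripts 46% were higher and 24.7% lower. With libraries centred 11 were higher and 12 lower, where 1883 of all were higher and 2565 lower. The largest rises were those of the checkpoint kinase genes grp (Chk1; 4.27) and lok (3.92), and the largest falls those of cort (-3.60) and Mat1, a gene of the Cdk-activating kinase (-1.79). For grp, footprints per RNA came to 0.0401 and 0.0370 before activation, to 0.929 and 0.692 in eggs and to 0.0281 and 0.0315 in png mutant eggs, an order shared by stg among the genes above. In png mutant eggs 16 of the 39 were higher and 12 lower than in eggs, where 32.1% of all transcripts were higher and 38% lower, with a median of 0.56 against -0.11 over all. With libraries centred 23 were higher and 12 lower, where 2762 of all transcripts were higher and 1823 lower. There lok (-4.80) and grp (-4.63) fell most, and endos (4.04) and cort (2.75) rose most. For endos, footprints per RNA went from 2.46 and 2.78 in oocytes to 0.810 and 0.789 in eggs and stood at 14.1 and 12.5 in png mutant eggs, the same order as for Cks30A.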

How the data were processed

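Per the file headers, input and footprint tables hold RPKM values, and fraction tables hold RPKM values normalized by the authors, each with a deposited fraction from 0 to 1 that splits a gene over its gradient. The labels disagree on the yeast mRNA (5 ng per fraction) added for normalization. Sample descriptions give it for oocyte replicate 1 and, with 5 ng of luciferase RNA, for the egg and puromycin gradients, and give none for oocyte replicate 2. The treatment protocol names the first replicate gradient of each stage alone, and the series' design text makes no exception. How it entered the normalization is not stated in the labels, so whether all gradients were normalized alike is not known. The submitters' processing notes name TopHat 1.3.2, Bowtie, HTSeq, FastQC and build dm3, without roles. Fraction tables start at a heavy polysome value of 4 for every gene listed, so mRNAs that left this fraction altogether are missing. No file gives read counts, so no counting interval was computed.

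Polysomal share was tested as log2 odds of medium and heavy polysomes against the other 4 fractions, 1 added to each side, in 1 limma 3.58.1 model over 6 gradients (R 4.3.3). Inputs were tested as log2(RPKM + 1) in 2 oocyte and 2 egg libraries. Efficiency and RNA came from 1 model over 12 libraries with a cycloheximide term per assay, so both cycloheximide states served as 2 observations of a stage, and a footprint and RNA library of the same sample entered as independent. Features below a mean of 1 RPKM were left out, or, in gradients, below a mean sum of 10 over the 6 fractions, which applied to no gene. Tests were two-sided with Benjamini-Hochberg adjustment over all features and a threshold of 0.05. Genes are said to rise, fall or pass only by that threshold. A count model had been planned for count tables, and none of the tables held counts. The fits were tested on simulated data. Rescalings gave each fraction the same total over the 5088 genes, or centred the log2 odds of a gradient, or log2 values of a library, on their median. The other alternatives were other pseudocounts and filters, other definitions of polysomal, a replicate block, and each replicate left out.

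All 10 genes are described whatever their values. From 39 other pathway genes the rule names at most the 4 largest rises and falls in polysomal share and the 2 largest of each direction in each efficiency comparison, among those that pass, and for CycA, CycB and CycB3 the 3 genes with the smallest Euclidean distance over 12 mean shares. The genes and lists were chosen with earlier results of these data known. Gene names of the tables were matched to RefSeq records (assembly Release 6 plus ISO1 MT) for 14066 of 14250 names and 5784 of 5842 transcripts. Other tools were python 3.11.15, pandas 2.3.3, numpy 2.4.6 and matplotlib 3.10.9.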

Additional observations from a re-analysis of the deposited data

Results flagged for a closer look

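For 8 of the 10 genes the effect of puromycin on the polysomal share differed between eggs and oocytes, by limma's contrast of both effects, each from 1 puromycin gradient. The difference in log2 odds, eggs minus oocytes, was -3.66 for CycA, -3.27 for wee, -2.71 for cdc2, -2.55 for CycB, -2.54 for CycD, -2.02 for CycB3, -1.77 for stg and -1.28 for twe. The polysomal share after puromycin was lower in eggs than in oocytes for all 10 genes, CycE and Cks30A included. The same held for the other pathway genes listed in all gradients, and the share of all genes that were lower was not counted. Of the pooled amounts of all genes listed in each puromycin gradient, 8.78% was polysomal in eggs and 17.5% in oocytes. The contrast passed in the same direction as for these 8 in 49.9% of all genes. It also contains the untreated gradients, so it is no separate result from the comparison of eggs with oocytes.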

How the results depend on the processing

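Of 890 recomputed values of the 10 genes 766 kept direction and side of the threshold, 51 lost the call, 31 gained one and 42 changed sign. Where no cause is given it was not tested.

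Changed signs with the fractions rescaled to equal totals were, for puromycin in oocytes, CycA 0.99, CycB 0.85, CycE 0.86, stg 1.33, twe 0.33 and wee 0.98, for puromycin in eggs, Cks30A 1.12, CycE 0.75 and stg 0.23, and for eggs against oocytes, stg 0.17. With gradients centred they were, for puromycin in oocytes, CycA 0.38, CycB 0.13, CycE 0.21, stg 0.65 and wee 0.33, for puromycin in eggs, Cks30A 1.11, CycE 0.64 and stg 0.074, for eggs against oocytes, stg 0.18 and twe 0.057, and for the contrast of puromycin effects, CycE 0.43. Centring shifts all genes of a gradient alike by construction, whereas rescaling the fractions moves genes by different amounts. With heavy polysomes alone they were Cks30A -0.41 (contrast of puromycin effects) and stg 0.43 (puromycin in oocytes). With low polysomes counted they were CycA 0.29 and stg 0.82 (puromycin in oocytes), CycB3 -0.16 (eggs against oocytes), and CycE 0.38 (puromycin in eggs) and 0.59 (contrast). With footprint libraries centred they were cdc2 -0.15 and 0.15 (efficiency, eggs against oocytes and png mutant eggs against eggs), and in RNA CycD -0.10 and twe -0.012. Values with 1 library left out included changed signs for inputs, with ranges of -0.66 to 0.22 for CycA, -0.42 to 0.14 for CycB, -0.77 to 0.13 for wee and -0.18 to 0.22 for CycD, and for CycD under puromycin in oocytes (-0.027 to 0.13). In footprint-series RNA they did so for CycD in png mutant eggs (-0.063 to 0.073), and for twe (-0.035 to 0.070) and Cks30A (-0.077 to 0.14) between eggs and oocytes.

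Among all genes, puromycin in oocytes called 870 with heavy polysomes alone in place of 2546, and 1617 to 3136 with a replicate left out. Inputs called 57 with no filter, 108 with a mean of 5 RPKM and 197 to 1726 with a replicate left out, in place of 230. Footprint-series RNA called 128 with libraries centred and 9 to 11 with a pair left out in place of 23 for eggs against oocytes, and 882 and 13 to 20 in place of 359 for png mutant eggs against eggs, where centring gave 411 higher and 471 lower in place of 252 and 107. Fewer samples entered each fit with one left out.

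Same-numbered replicates did not deviate together over genes (correlation -0.03 for shares and for inputs). With 2 replicates per stage, this cannot settle whether the numbers mark a shared preparation. With the replicate number as a block 3426 genes passed in polysomal share in place of 3517 and 370 in inputs in place of 230, and among the 10 genes it changed only Cks30A in inputs, which then passed (adjusted p = 0.000517).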
